A study of Mus musculus with 4 samples.

Results

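The genes described here are 43 regulators and markers of the nephron, taken as a list of mouse gene symbols. They cover the factors that form the nephric duct and the nephron progenitors, the transcription factors that pattern the nephron, and markers of the tubule segments and of tubule injury. All 43 matched exactly 1 Ensembl gene among the 56393 genes of the count table. RNA was sequenced from MPC cells, a mouse podocyte line that is conditionally immortalised: it is grown at 33 °C with 20 U/ml interferon-gamma and 10% serum and differentiates at 37 °C without interferon-gamma, here for 7 days. There were 4 libraries, 1 per group: sh-JAML/HG (a hairpin against Jaml and D-glucose to a final 40 mmol/L for 24 h), sh-JAML (the same hairpin without added glucose), sh-NC/HG (control hairpin with the same glucose) and sh-NC (control hairpin without it). The sources used here name no osmotic control, and do not say whether a hairpin line was 1 clone.

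The nephron grows from intermediate mesoderm. Pax2, Pax8 and Lhx1 mark the nephric duct and the early nephron, Six2 and Osr1 mark progenitors that will become nephron epithelium, and Hnf4a, Irx and Tfap2 genes take part in setting up its segments. Mature tubule segments are told apart by their transporters, and podocytes, which wrap the glomerular capillaries, come from the same progenitors but normally switch off Pax2 and do not carry tubule transporters. Parietal epithelial cells of Bowman's capsule keep Pax2 and Pax8.

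Library totals ran between 79330461 and 94341975. A count minimum, a mean of 50 across the libraries, left 14187 genes to compare. Levels are CPM, counts relative to the library size after TMM scaling, and levels compared between genes are CPM per kilobase of exon. In the deposited counts 4 units were taken as 1 sequenced fragment, so the floor of 3 fragments is 12 units, or 0.129 to 0.151 CPM in a library. Jaml itself had a count of 0 in each of the 4 libraries, so the knockdown could not be checked. The sh-NC/HG library stood apart: 617 genes there exceeded the mean of the other 3 libraries by 2-fold or more and 357 fell short of it by as much, against at most 160 above and 241 below in any other library. Mitochondrially encoded mRNAs took 1.33% of its counts, against 1.95% to 2.15% in the others. Whether RNA quality has a part in the values of this library was not tested.

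Of the 43 genes, 22 passed the count minimum, 12 had some counts below it, and 9 had a count of 0 in each of the 4 libraries. The 9 were the progenitor genes Osr1, Six2 and Meox1, the proximal tubule regulator Hnf4a, the nuclear receptor gene Esrrb, the proximal phosphate transporter gene Slc34a1, the thick ascending limb gene Umod (uromodulin), the distal tubule gene Kl (klotho) and the distal calcium-binding protein gene Calb1. Among the 12 with counts below the minimum, the highest count in any library was 58, for Ret, the receptor of the ureteric bud. The line carried RNA of many lineage factors, while the segment transporters in the list were at or near 0.

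**Figure D1:**
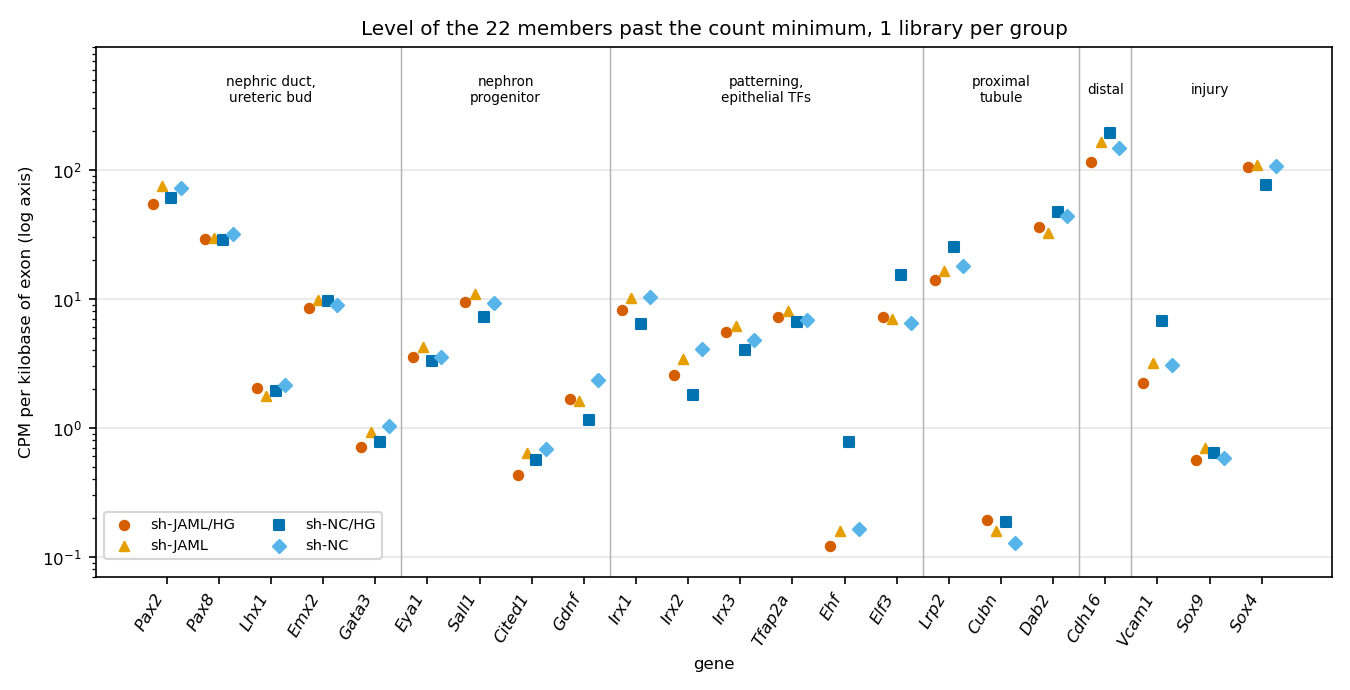
Level of each of the 22 genes past the count minimum, as CPM per kilobase of exon on a log axis, with 1 point per library and the genes grouped by role. Cdh16, Sox4, Pax2 and Dab2 sit highest, and the sh-NC/HG points of Ehf, Elf3 and Vcam1 lie above the other 3 points of the same gene.

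The sequences of 3 promoters are given as examples, picked after the values were seen among the genes that the RefSeq promoter table holds: Elf3 and Lrp2 were highest in sh-NC/HG, and Irx2 was lowest there. Elf3 encodes an epithelial ETS factor, Lrp2 the endocytic receptor megalin, and Irx2 an Iroquois homeobox factor. Each is the 250 bases before the RefSeq start on GRCm38.p6, 5′ to 3′ on the strand of the gene, with motif matches in capitals. The GENCODE starts of Elf3 and Lrp2 lie further upstream, inside their windows.
Elf3, chr1:135258473-135258722, minus strand: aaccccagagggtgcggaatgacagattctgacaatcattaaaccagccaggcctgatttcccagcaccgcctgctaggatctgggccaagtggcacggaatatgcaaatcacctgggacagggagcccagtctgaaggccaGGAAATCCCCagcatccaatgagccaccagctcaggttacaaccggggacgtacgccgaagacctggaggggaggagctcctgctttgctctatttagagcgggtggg
Lrp2, chr2:69586030-69586279, minus strand: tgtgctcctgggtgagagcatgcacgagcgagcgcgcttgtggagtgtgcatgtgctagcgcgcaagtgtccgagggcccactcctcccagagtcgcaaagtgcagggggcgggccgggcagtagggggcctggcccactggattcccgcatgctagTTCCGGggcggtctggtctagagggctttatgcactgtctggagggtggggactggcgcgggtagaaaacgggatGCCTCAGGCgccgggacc
Irx2, chr13:72628570-72628819, plus strand: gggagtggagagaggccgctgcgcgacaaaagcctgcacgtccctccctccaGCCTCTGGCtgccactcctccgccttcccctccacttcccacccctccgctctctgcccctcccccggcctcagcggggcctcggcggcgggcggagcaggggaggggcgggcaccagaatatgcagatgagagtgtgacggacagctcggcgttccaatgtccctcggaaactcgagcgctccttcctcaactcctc

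The windows were searched on both strands for 5 motifs: the NF-kB consensus, the ETS core CCGGAA, the AP-2 motif GCCNNNGGC, the Iroquois motif ACANNTGT and the TATA box TATAAA. The Elf3 window held an NF-kB match from 108 to 99 bases before the start, a motif found in 7.25% of the 32851 promoter windows of this length. The Lrp2 window held an ETS match from 93 to 88 bases before the start and an AP-2 match from 18 to 10 bases before it, motifs found in 12% and 13.7% of windows. The Irx2 window held an AP-2 match from 198 to 190 bases before its start. No 2 matches overlapped in these windows. The table held promoters of 31 of the 43 genes and of 16 of the 22 past the minimum. Among its 47 windows for them, 2 held an NF-kB match, 6 an ETS match, 8 an AP-2 match, 2 an Iroquois match and 5 a TATA box, motifs that 6.31% and 12.4% of all windows hold. A match is a run of letters and does not show that a factor binds.

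Among the nephric duct and ureteric bud factors, 5 of 6 passed the count minimum, and Pax2 and Pax8 were the most abundant. Pax2, a paired-box factor that opens the nephric programme, stood at 54.5 CPM per kilobase in sh-JAML/HG, 74.9 in sh-JAML, 61.0 in sh-NC/HG and 72 in sh-NC. Its mean lay at the 94.8th percentile of the genes past the minimum, and both glucose libraries were below both libraries without added glucose. Pax8, its partner paired-box factor, stood at 29.4 CPM per kilobase in sh-JAML/HG, 29.4 in sh-JAML, 28.6 in sh-NC/HG and 31.6 in sh-NC. The highest Pax8 library was 1.11 times the lowest, the narrowest range of the 22 genes.

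Emx2, a homeobox factor of the ureteric bud, stood between 8.43 and 9.80 CPM per kilobase, and Lhx1, a LIM homeobox factor of the nephric duct and early nephron, between 1.75 and 2.13. Gata3, which the nephric duct and collecting duct use, stood between 0.711 and 1.04 CPM per kilobase. The counts of Ret were 43 in sh-JAML/HG, 21 in sh-JAML, 56 in sh-NC/HG and 58 in sh-NC, under the minimum of 50 on average. None of the 5 measured factors was 2-fold apart in any of the 4 pairs of libraries described below. Some reads could be shared with a neighbour, since 8.79% of the exon bases of Emx2 overlap its antisense gene Emx2os, and 6.06% of those of Pax8 overlap Gm13415 on the other strand.

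Nephron progenitor genes were split between well-counted genes and genes at 0. Sall1, a zinc finger gene needed for the ureteric bud to invade, stood at 9.51 CPM per kilobase in sh-JAML/HG, 10.8 in sh-JAML, 7.28 in sh-NC/HG and 9.35 in sh-NC. Eya1, a transcriptional co-activator, stood between 3.31 and 4.22 CPM per kilobase. Cited1, a transcriptional co-regulator of the cap mesenchyme, had only 64 to 95 count units per library. Six2 and Osr1, which define self-renewing progenitors, had a count of 0 in each of the 4 libraries, as did Meox1.

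Gdnf, the ligand that calls out the ureteric bud through Ret, stood at 1.69 CPM per kilobase in sh-JAML/HG, 1.62 in sh-JAML, 1.15 in sh-NC/HG and 2.34 in sh-NC. The sh-NC library was the highest and sh-NC/HG the lowest. Against sh-NC, Gdnf in sh-NC/HG was 2.04-fold lower (95% counting interval 1.58 to 2.64), and 1.04 times as high in sh-JAML/HG as in sh-JAML (0.807 to 1.35). Its co-receptor gene Gfra1 was 2.85-fold higher in sh-NC/HG when set against sh-NC (2.55 to 3.18). Without added glucose Gdnf was 1.45-fold lower in sh-JAML than in sh-NC (1.14 to 1.84).

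Of the 12 patterning and epithelial transcription factors, 6 passed the minimum. The Iroquois genes help set the fate of the intermediate nephron segments, and Irx1 and Irx2 neighbour each other on chromosome 13 (71957921 to 71963723 and 72628820 to 72634198, mm10). Irx1 stood at 8.27 CPM per kilobase in sh-JAML/HG, 10.2 in sh-JAML, 6.37 in sh-NC/HG and 10.4 in sh-NC. Irx2 stood at 2.58 CPM per kilobase in sh-JAML/HG, 3.43 in sh-JAML, 1.79 in sh-NC/HG and 4.08 in sh-NC. For both genes each glucose library was below both libraries without added glucose. Irx3, on chromosome 8, stood at 5.55 CPM per kilobase in sh-JAML/HG, 6.18 in sh-JAML, 3.98 in sh-NC/HG and 4.83 in sh-NC, so its sh-JAML/HG library was above its sh-NC library.

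Elf3 and Ehf belong to the epithelium-specific branch of the ETS family, and both were highest in sh-NC/HG. Elf3 (chromosome 1, 135253575 to 135258568) stood at 7.28 CPM per kilobase in sh-JAML/HG, 7.02 in sh-JAML, 15.4 in sh-NC/HG and 6.53 in sh-NC. Ehf (chromosome 2, 103263433 to 103303278) was far lower, with counts of 57 in sh-JAML/HG, 70 in sh-JAML, 405 in sh-NC/HG and 73 in sh-NC. The other 3 libraries lay close together for both genes. Tfap2a, an AP-2 factor, stood between 6.61 and 8.12 CPM per kilobase. It shares 14.6% of its exon bases with genes on the other strand. Tfap2b, the AP-2 factor of the distal nephron, had 9 units in sh-JAML/HG and 0 in the other 3 libraries.

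Pou3f3 (a POU factor of the loop and distal segments), Grhl2 (a factor that keeps epithelial junction genes on) and Esrrg (a nuclear receptor of oxidative metabolism) reached no more than 12, 13 and 41 units. Epcam, an adhesion gene of simple epithelia, had 9 units in sh-JAML and 0 in the other 3 libraries. The epithelial cadherin gene Cdh1, which is not in the list of 43, had at most 11 units.

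Of the 6 proximal tubule genes, Lrp2, Dab2 and Cubn passed the count minimum, and Amn, Slc34a1 and Slc5a2 did not. Megalin, cubilin and amnionless form the receptor complex that takes filtered protein back up, and Dab2 is the adaptor that links megalin to clathrin. Lrp2 (chromosome 2, 69424340 to 69586065) stood at 13.9 CPM per kilobase in sh-JAML/HG, 16.3 in sh-JAML, 25.2 in sh-NC/HG and 17.9 in sh-NC. Dab2 stood at 35.8 CPM per kilobase in sh-JAML/HG, 32.6 in sh-JAML, 47.0 in sh-NC/HG and 43.9 in sh-NC. Both sh-JAML libraries were below both sh-NC libraries for both genes.

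Cubn, the cubilin gene, was near the bottom of the measured range at 0.193 CPM per kilobase in sh-JAML/HG, 0.158 in sh-JAML, 0.187 in sh-NC/HG and 0.127 in sh-NC. Its mean lay at the 1.44th percentile of genes past the minimum, while that of Lrp2 lay at the 76.2nd. Amn, the amnionless gene, had 9 units in sh-JAML/HG, 7 in sh-JAML and 0 in both sh-NC libraries, all under the floor of 12. The sodium-glucose transporter gene Slc5a2 had 33 units in sh-JAML/HG, 31 in sh-JAML, 40 in sh-NC/HG and 19 in sh-NC, and 20.6% of its exon bases overlap a gene on the other strand. RNA of megalin and its adaptor was thus plentiful beside little of cubilin and amnionless.

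All 18 genes of a list of endocytic machinery (clathrin, its AP2 adaptor, Rab GTPases, the megalin chaperone gene Lrpap1 and others) passed the count minimum, with 0 of 18 at least 2-fold apart in any pair. Of 21 other proximal tubule markers, 4 passed the minimum: the water channel gene Aqp1, the neprilysin gene Mme, the bicarbonate transporter gene Slc4a4 and the creatine synthesis gene Gatm. Aqp1 stood at 36.2 CPM per kilobase in sh-JAML/HG, 107 in sh-JAML, 112 in sh-NC/HG and 111.5 in sh-NC, so 1 library lay far below, and Mme stood between 46.6 and 62.3. Another 13 of the 21 stayed at or under the floor in every library, among them Miox, Kap and the organic anion transporter genes Slc22a6 and Slc22a8.

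Of the 8 loop, distal and collecting duct markers, only Cdh16 passed the minimum. Cdh16, which encodes the kidney-specific cadherin of tubule epithelium (chromosome 8, 104601911 to 104624396), stood at 115.5 CPM per kilobase in sh-JAML/HG, 164.6 in sh-JAML, 194.5 in sh-NC/HG and 148 in sh-NC. It had the highest mean of the 43 genes, at the 98.3rd percentile of the genes past the minimum. The sh-NC/HG library was the highest for Cdh16 and sh-JAML/HG the lowest. Slc12a1 and Slc12a3, the salt transporter genes of the thick ascending limb and the distal convoluted tubule, had at most 14 and 10 units, and the collecting duct water channel gene Aqp2 had 8 units in sh-NC and 0 in the other 3 libraries.

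Other markers of these segments gave a similar picture: 5 of 15 for loop and distal tubule and 5 of 16 for collecting duct passed the minimum. The broadly expressed kinase gene Wnk1 and its relative Wnk4 led the first list, and Ptgs1, a cyclooxygenase gene, and the keratin gene Krt7 led the second. The summed level of the 16 collecting duct markers was 5.12 CPM per kilobase in sh-JAML/HG, 5.70 in sh-JAML, 9.46 in sh-NC/HG and 5.74 in sh-NC. Against sh-NC, 3 of the 5 measured markers were higher in sh-NC/HG and 2 lower. Only 1 of them, Hsd11b2, was at least 2-fold higher (2.63-fold, 95% counting interval 1.82 to 3.88). Of 31 other nephron regulators, 18 passed the minimum and 7 had a count of 0 in each library. Tfcp2l1, a transcription factor of the distal nephron and collecting duct in that list, stood between 38.5 and 41.3 CPM per kilobase. In the same list Foxi1, Sim1 and Prox1 were at 0, and Wnt9b and Wnt11 reached no more than 8 and 74 units.

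Of the injury genes, Havcr1, which encodes the kidney injury molecule KIM-1, had 4 units in sh-JAML/HG and 0 in the other 3 libraries. Sox4, a SOX factor active in immature and regrowing epithelium, stood at 106 CPM per kilobase in sh-JAML/HG, 109 in sh-JAML, 76.6 in sh-NC/HG and 107 in sh-NC, so 1 library lay apart below. Of its exon bases, 54.6% overlap Gm26735 on the other strand, so the assignment of its reads is uncertain. Sox9, a factor of tubule repair, stood between 0.564 and 0.694 CPM per kilobase. Of 14 other injury genes 12 passed the minimum, led per kilobase by the annexin gene Anxa2 and the vimentin gene Vim.

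Vcam1, which encodes an adhesion molecule for leukocytes that marks failed repair in tubules and is also carried by parietal cells, stood at 2.21 CPM per kilobase in sh-JAML/HG, 3.18 in sh-JAML, 6.74 in sh-NC/HG and 3.07 in sh-NC. The sh-NC/HG library was 2.19-fold above sh-NC (1.98 to 2.42), and sh-JAML/HG was 1.44-fold below sh-JAML (1.26 to 1.63). Vcam1 lies on chromosome 3 from 116109949 to 116129688.

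The labels call the cells podocytes, and the defining podocyte genes were uneven. Of 20 podocyte genes, 14 passed the minimum, led per kilobase by the nephrin relative Kirrel (93.3 to 120 CPM per kilobase) and by Npnt (65.0 to 94.7), which encodes a matrix protein. Synpo, which encodes the podocyte actin regulator synaptopodin, stood between 18.1 and 25.9 CPM per kilobase. The most specific genes were at or near 0: Nphs1 (nephrin) had 17 to 35 units, Lmx1b at most 9, Ptpro at most 4 and Tcf21 had 0. Wt1, the podocyte transcription factor gene, had 59 to 93 units, against 24893 to 32454 for Pax2.

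Markers of other cells that such a culture could hold were measured in the same way. Of 10 parietal epithelial genes 6 passed, with Akap12 at 160.7 to 199.6 CPM per kilobase and Dkk3 at 51.9 to 71.1, while Krt8 reached no more than 42 units and Krt18 no more than 4. Of 12 mesangial and stromal genes 8 passed, led by the smooth muscle genes Acta2 (309 to 488 CPM per kilobase) and Tagln (270.2 to 435, with 67.9% of its exon bases shared with genes on the other strand), while Itga8 and Ren1 had a count of 0. Of 8 endothelial genes 3 passed, and Kdr was at 0 and Cdh5 at most at 5 units. Of 8 leukocyte genes 2 passed, and Ptprc had at most 25 units. The nephron genes that were high (Pax2, Pax8, Cdh16 and Lrp2) thus stood beside podocyte and stromal lists that were each mixed. Kirrel and Npnt were high and Nphs1 and Tcf21 near-absent, while Acta2 and Tagln were high and Itga8 and Ren1 at 0.

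**Figure D2:**
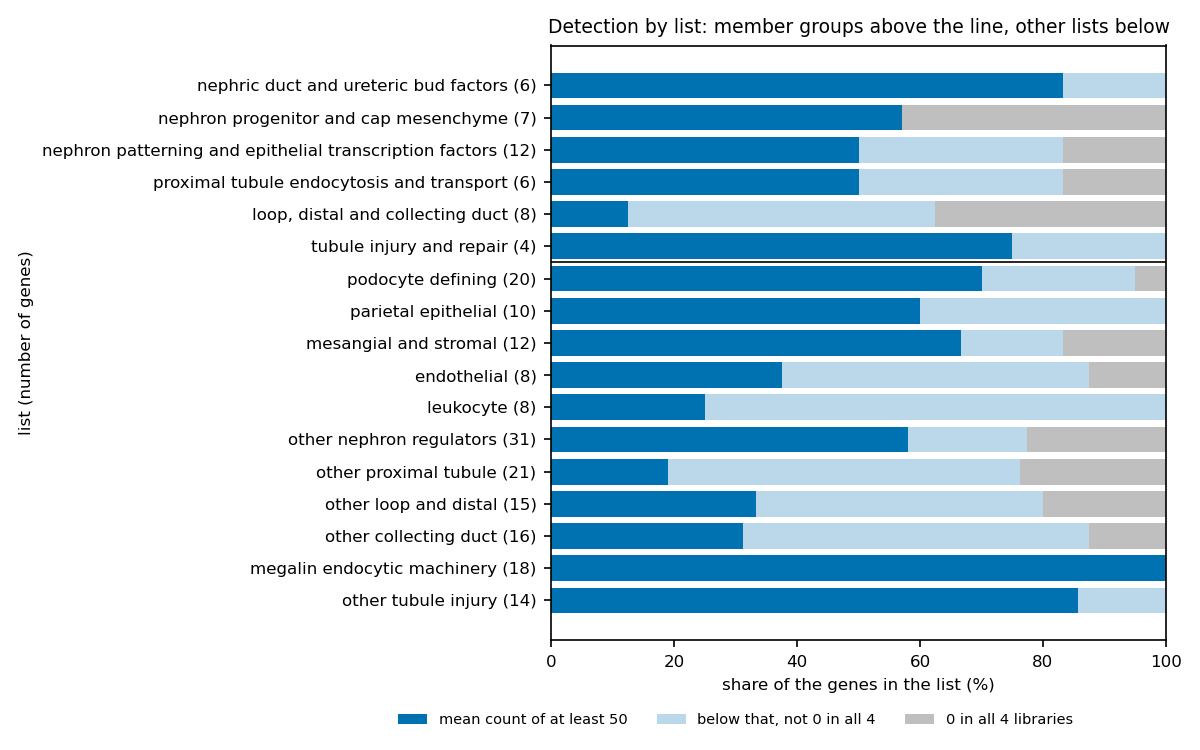
Share of the genes of each list, in percent, that passed the count minimum of 50, had a lower count, or a count of 0 in each of the 4 libraries, with the groups of the 43 genes above the line and the other lists below it. Nephric duct factors (5 of 6) and megalin machinery (18 of 18) were mostly counted, while loop, distal and collecting duct markers (1 of 8) and other proximal markers (4 of 21) mostly were not.

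Setting sh-NC/HG against sh-NC asks what high glucose does with the control hairpin. Ehf, Elf3 and Vcam1 were at least 2-fold higher in sh-NC/HG, and Irx2 and Gdnf at least 2-fold lower. Ehf was 4.73-fold higher (2.85 to 8.27), Elf3 2.36-fold higher (2.06 to 2.71), and Irx2 2.29-fold lower (1.85 to 2.83). Irx1 was 1.63-fold lower (1.43 to 1.86), Lrp2 1.41-fold higher (1.36 to 1.45), Cdh16 1.31-fold higher (1.28 to 1.35), and Sox4 1.40-fold lower (1.36 to 1.44). No test can be made for a pair of single libraries, and the intervals cover counting error only.

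These 3 higher and 2 lower genes among the 22 stand beside 4.65% of all 14187 genes that were higher by 2-fold or more and 3.27% that were lower. The median log2 ratio of the 22 was -0.12 (quartiles -0.34 and 0.33), and that of all genes 0.00 (quartiles -0.23 and 0.24). The ratio was below 1 for 13 of the 22, beside 49.8% of all genes. All 4 measured progenitor genes, 4 of the 5 measured duct factors and none of the 3 measured proximal genes were among the 13, but the intervals of Eya1, Cited1, Lhx1, Gata3 and Cubn include 1. Of the 4 measured genes of the other proximal list 2 were above 1 and 2 below, with Slc4a4 1.84-fold lower (1.72 to 1.98) and Mme 1.34-fold lower (1.30 to 1.37). The counting interval left out 1 for 14 of the 22 members, beside 57.4% of all genes. Among genes outside the 43, 6 of the 12 measured injury genes were above 1 and 6 below, with a median log2 ratio of 0.02. Lcn2 (lipocalin-2) was 34.5-fold higher in sh-NC/HG (16.3 to 88.3), on 1092 units in sh-NC/HG and 27 in sh-NC. Spp1 (osteopontin) was 2.17-fold higher (2.03 to 2.31), and Vim 1.62-fold lower (1.585 to 1.65). The stromal gene Dcn (decorin) was 15.1-fold higher (7.60 to 34.5), and the Notch ligand gene Jag1 2.80-fold lower (2.68 to 2.93). Thsd7a, from the podocyte list, was 7.74-fold lower (5.92 to 10.3), and the cadherin gene Cdh6, from the parietal list, 4.11-fold lower (3.93 to 4.29). Their lists were mixed: 6 of the 14 measured podocyte genes were above 1 and 8 below, and 3 of the 6 measured parietal genes were above and 3 below. The podocyte gene Nes was 1.29-fold higher (1.26 to 1.32), and the parietal gene Akap12 1.18-fold higher (1.16 to 1.20).

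Of the mesangial and stromal list, 3 of 8 measured genes (Des, Dcn and Postn) were at least 2-fold higher in sh-NC/HG, although the summed level of the 12 was 675.5 CPM per kilobase in sh-NC/HG and 971.5 in sh-NC. The summed level of the 8 leukocyte genes was 6 CPM per kilobase in sh-NC/HG and 4.58 in sh-NC, and that of the 8 endothelial genes 6.37 in sh-NC/HG and 4.73 in sh-NC. Averaged over the libraries, Cd68 made up 59.8% of the leukocyte sum and Ehd3 65% of the endothelial sum. The intervals of the 2 measured leukocyte genes, Cd68 (0.883 to 1.73) and Lyz2 (0.953 to 2.12), include 1. Of the 3 measured endothelial genes, 2 were above 1 and 1 below. The part of these markers in the values of the nephron genes was not tested. A higher share of cells with a gene and more RNA per cell cannot be told apart in bulk RNA.

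**Figure D3:**
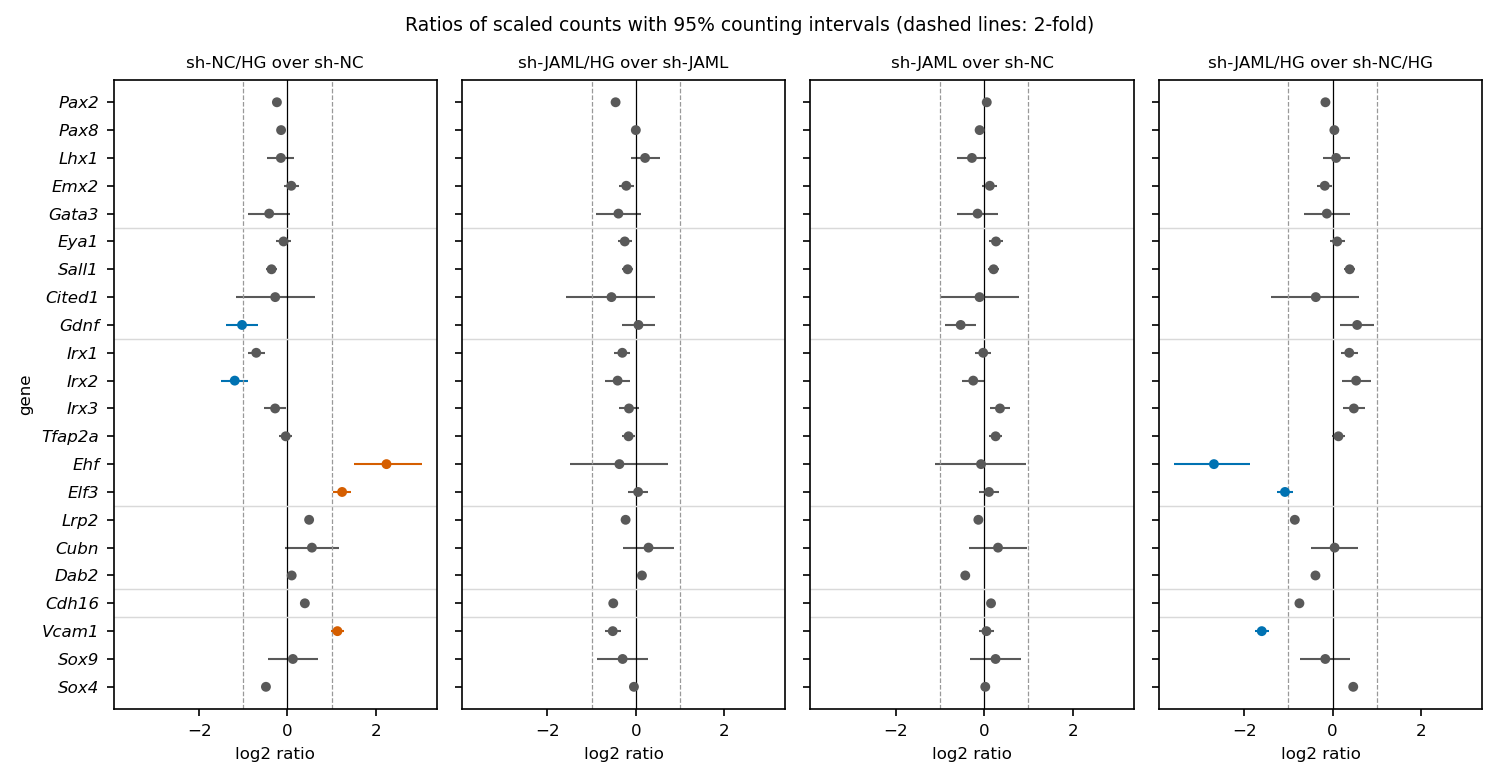
Log2 ratio of scaled counts for the 22 genes in each of the 4 pairs of libraries, with 95% counting intervals, dashed lines at 2-fold, and genes at least 2-fold higher in orange and lower in blue. In sh-NC/HG over sh-NC 3 genes are higher and 2 lower, in sh-JAML/HG over sh-NC/HG 3 are lower, and none is 2-fold apart in the middle panels.

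The same question with the Jaml hairpin is put by sh-JAML/HG over sh-JAML. No gene of the 22 was 2-fold apart, beside 1.31% of all genes higher and 1.56% lower. The counting interval left out 1 for 12 of the 22, beside 32.5% of all genes. Ratios below 1 were found for 17 of the 22, beside 50.1% of all genes, with a median log2 ratio of -0.22 against 0.00 for all genes, although the ratio of Pax8 turned to just above 1 with DESeq2 size factors and with library totals. Cited1 had the ratio farthest from 1, at 1.47-fold lower (0.737 to 2.98), on counts of 64 in sh-JAML/HG and 89 in sh-JAML. Vcam1 was 1.44-fold lower, and Cdh16 1.42-fold lower (1.39 to 1.46). Pax2 was 1.37-fold lower (1.33 to 1.42), Irx2 1.33-fold lower (1.09 to 1.63), Irx1 1.24-fold lower (1.09 to 1.40) and Lrp2 1.17-fold lower (1.13 to 1.22). Dab2 went the other way and was 1.10-fold higher (1.06 to 1.14). Outside the 43, 3 genes of the lists were at least 2-fold lower in this pair: Aqp1 by 2.95-fold (2.81 to 3.11), the tight junction gene Cldn19 by 7.82-fold (2.996 to 26.5) and the leukocyte gene Lyz2, which sh-JAML/HG held at 5 units, below the floor of 12, and sh-JAML at 162.

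The glucose differences of the 22 genes were the same way round in both hairpins for 14 genes: 11 were below 1 in both pairs (Pax8 with the exception just given), beside 25.7% of all genes, and 3 (Cubn, Dab2 and Elf3) above 1 in both, beside 25.8%. The remaining 8 had ratios on opposite sides of 1, beside 48.6% of all genes. Both intervals also left out 1 for 3 of these 8, beside 10.4% of all genes. For these, Lrp2, Cdh16 and Vcam1, the log2 ratios were -0.23, -0.51 and -0.52 with the Jaml hairpin, and 0.49, 0.39 and 1.13 with the control hairpin. The sh-NC/HG library was the highest of the 4 for 6 genes and the lowest for 9, and of all genes 36.0% were highest and 36.4% lowest in it. The sh-JAML/HG library was the highest for 1 gene and the lowest for 9, against 21.7% and 21.8% of all genes.

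**Figure D4:**
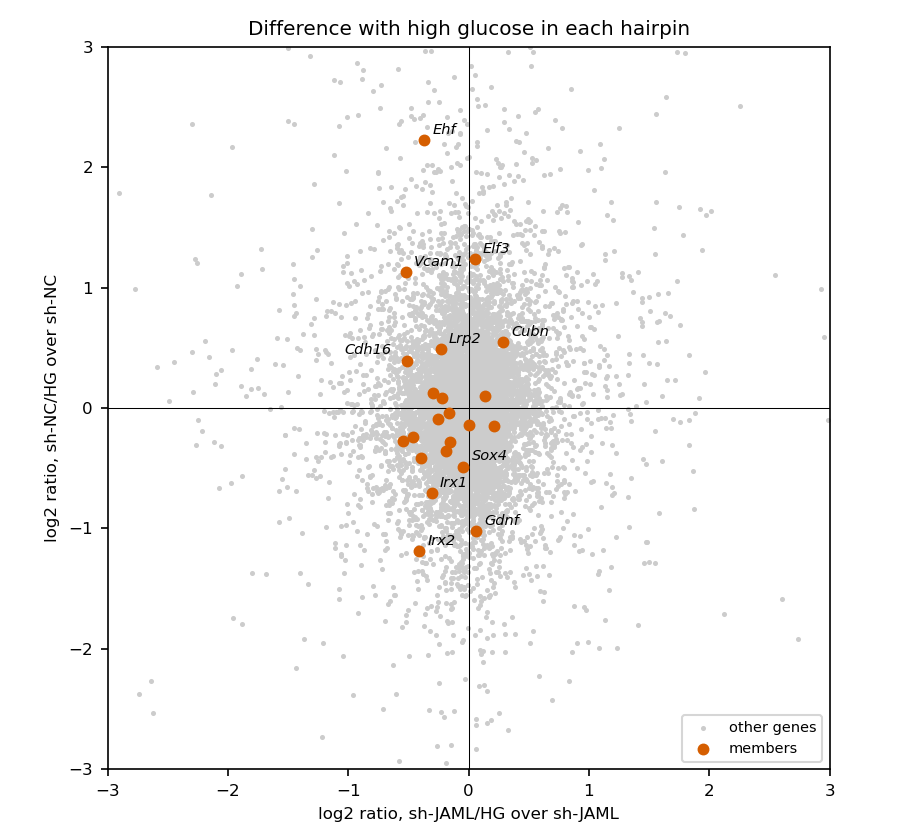
Log2 ratio with high glucose in the Jaml-hairpin libraries (x axis) and in the control-hairpin libraries (y axis) for the 22 genes (orange) and other genes (grey), with 128 of the 14187 genes outside the axes. Ehf, Elf3 and Vcam1 lie above 1 on the y axis, Irx2 and Gdnf below -1, and all 22 lie between -0.54 and 0.29 on the x axis.

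Without added glucose, in sh-JAML over sh-NC, no gene of the 22 was 2-fold apart, beside 1.31% of all genes higher and 1.4% lower, and the median log2 ratio was 0.04. This pair shares a library with each of the glucose pairs. The counting interval left out 1 for 10 of the 22 genes, beside 31.0% of all genes. Gdnf was lower, as above, and Dab2 was 1.35-fold lower (1.30 to 1.40). Irx3 was 1.28-fold higher in sh-JAML (1.09 to 1.51), and Eya1 and Tfap2a were 1.20-fold higher (1.07 to 1.35 and 1.08 to 1.33).

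Under high glucose, sh-JAML/HG had lower levels than sh-NC/HG of Ehf, Elf3 and Vcam1. This pair shares its sh-NC/HG library with the control-hairpin glucose pair above. Ehf was 6.44-fold lower (3.68 to 12.1), Vcam1 3.04-fold (2.72 to 3.40) and Elf3 2.11-fold (1.86 to 2.41), which makes 3 of 22 lower and 0 higher, beside 4.78% and 2.81% of all genes. The counting interval left out 1 for 14 of the 22, beside 57.5% of all genes. Lrp2 was 1.81-fold lower (1.75 to 1.87), Cdh16 1.68-fold lower (1.64 to 1.73) and Dab2 1.31-fold lower (1.27 to 1.36). Sox4 was 1.38-fold higher (1.34 to 1.42), Gdnf 1.47-fold higher (1.12 to 1.93) and Irx2 1.44-fold higher (1.15 to 1.82).

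An additive model over all 4 libraries, with terms for hairpin and glucose and 1 residual degree of freedom, asks which differences were of like size in both pairs. EdgeR's quasi-likelihood test with Benjamini-Hochberg adjustment over the 14187 genes called 0 of the 22 genes for glucose and 0 for hairpin, beside 0.00705% and 0.0% of all genes. DESeq2 and limma-voom also called 0 of the 22, beside 0.374% and 0.0% of all genes for glucose and 0.338% and 0.0% for hairpin. At an unadjusted p under 0.05, edgeR had 3 of the 22 for glucose (Pax2, Irx1 and Irx2), beside 2.8% of all genes, and 1 for hairpin (Dab2), beside 2.82%. DESeq2 had the same 3 for glucose, beside 3.87%, and 3 for hairpin (Dab2, Lrp2 and Vcam1), beside 4.19%. With glucose the log2 change was -0.80 for Irx2, -0.51 for Irx1 and -0.35 for Pax2 (edgeR quasi-likelihood test, adjusted p = 0.927 for each). With the Jaml hairpin the log2 change of Dab2 was -0.41 (edgeR quasi-likelihood test, adjusted p = 0.933). None of these 4 genes passed the adjustment. Each lay on the same side in 2 of 2 pairs. Picking genes by this model favours that, since its error is the disagreement between the pairs, so it adds no support.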

How the data were processed

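Total RNA from MPC cells was made into libraries following the TruSeq RNA guide, per the labels' protocols. CASAVA 1.8, TopHat2 2.0.6 and the build mm10 are listed, per the submitters' processing notes. The table deposited by the authors holds 1 estimated count per Ensembl gene and library, with whole numbers and no scaling between libraries. How reads were counted, with which annotation and with what use of strand, is not given in the sources used here. Of its 4 columns, the control and the high-glucose column carry no hairpin in their names; they were taken as sh-NC and sh-NC/HG. The series' design text counts 4 samples with high glucose and 4 without, and the analysis covers 4 libraries in all. Low values piled up at 4, 8 and 12 (1.51 to 2.10 times the mean number of genes 2 units above and below), so 4 units were taken as 1 fragment for intervals and floors. Of the lines, 1 without a gene was left out, and 27916 genes were at 0 in all 4 libraries. Symbols, positions and exon lengths came from GENCODE release M21 (55394 genes matched, 999 did not), and promoters from RefSeq on GRCm38.p6.

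Ratios used edgeR TMM factors with a prior count of 1 (R 4.3.3, edgeR 4.0.16), with exact Clopper-Pearson 95% intervals conditional on the sum of both counts. A gene was apart at 2-fold or more. Beside the additive model in edgeR, limma 3.58.1 and DESeq2 1.42.0 were run. The p-values of the additive model set the difference shared by the pairs against how far the pairs disagree. They measure no spread between replicates, and the labels do not name separate cultures. Other values used Python 3.11.15, pandas 2.3.3 and scipy 1.17.1. All 43 genes are named, and of the other lists the 2 highest per kilobase, those 2-fold apart and the podocyte genes could be. Outside this rule, Tfcp2l1, Slc4a4, Gatm and Lrpap1 were named as well, and so were genes at or near 0. These further genes were chosen after their values were seen. The members and lists were chosen with earlier results of these data known.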

Additional observations from a re-analysis of the deposited data

Results flagged for a closer look

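Lrp2, Cdh16 and Vcam1 had glucose ratios on opposite sides of 1 in the 2 hairpins, with both counting intervals leaving out 1, as was found for 10.4% of all genes. The glucose log2 ratio with the Jaml hairpin minus that with the control hairpin was -0.72 for Lrp2, -0.91 for Cdh16 and -1.65 for Vcam1. With 1 library per group the difference was not tested, and all 3 genes were highest in the sh-NC/HG library.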

How the results depend on the processing

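No paired analysis was possible because each group had 1 library and the labels give no replicate numbers, and no library could be left out of the additive model without losing its residual degree of freedom. Without the count minimum, 34 of the 43 genes entered and the counts of genes at least 2-fold higher and lower became 6 and 4 in sh-NC/HG over sh-NC, 6 and 2 in sh-JAML/HG over sh-JAML and 4 and 4 in sh-JAML over sh-NC, and the count of higher genes in sh-JAML/HG over sh-NC/HG became 3, since genes of a few fragments entered. At 1.5-fold, 5 genes were lower in sh-JAML/HG over sh-NC/HG. All 88 ratios stayed within their counting intervals with DESeq2 size factors, upper-quartile factors, library totals and a prior count of 5, and so did the 44 that leave out sh-NC/HG when scaled without it, an alternative chosen after seeing the data. The signs of 2 ratios changed: Pax8 (log2 ratio -0.0005) in sh-JAML/HG over sh-JAML under DESeq2 size factors and library totals, and Irx1 (-0.02) in sh-JAML over sh-NC under library totals. With the longest transcript as length, levels per kilobase were up to 2.17 times as high (Vcam1), and 5 of 22 moved by over 1.5 times.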
